A study of Homo sapiens with 12 samples.

Results

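SMAD proteins carry the TGF-beta signal to the nucleus, and a set of inhibitors, several of them induced by the signal itself, limits it. The 10 genes described here are SMAD2, SMAD3, SMAD4, SMAD6, SMAD7, SKI, SKIL, PMEPA1, SMURF2 and BAMBI. They were chosen by gene symbol in the deposited table, which gave 33 of 54613 probe sets and 10 of 19682 genes. No probe set named 1 of them together with another gene. Ect1 cells, a single line of human ectocervical epithelium immortalised with papillomavirus oncogenes, formed a confluent layer in a serum-free medium for keratinocytes, with EGF and bovine pituitary extract in all 3 groups. For 10 h they then received fresh medium alone (control), medium to which human seminal plasma from a pool had been added at 10%, or medium with recombinant human TGFB3, a TGF-beta ligand, at 5 ng/ml. Each group had 4 Affymetrix U133 Plus 2.0 arrays, 12 in all, and each array read a biological replicate pooled from 4 wells.

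Background for the members is as follows. TGF-beta binds a pair of receptor kinases that phosphorylate SMAD2 and SMAD3. These join SMAD4, enter the nucleus and act on target genes. SMAD7 occupies the receptor and recruits ubiquitin ligases such as SMURF2, SMAD6 does the like mainly for BMP receptors, SKI and SKIL are nuclear co-repressors of SMAD complexes, PMEPA1 is a membrane protein that holds SMAD2 and SMAD3 away from the receptor, and BAMBI is a receptor-like protein without a kinase. In squamous epithelium TGF-beta is known for restraining growth and for inducing matrix and wound repair genes.

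The arrays read epithelial RNA. All 11 squamous epithelial markers, among them KRT5, KRT14 and TP63, had a signal of at least 100 on every array. None of the 8 leukocyte and 7 sperm and testis markers measured did so, and 2 of 8 prostate and seminal vesicle markers and 2 of 8 fibroblast markers did. Among the leukocyte markers, mean signals in controls, seminal plasma and TGFB3 were 688, 424 and 184 for CD14 and 133, 176 and 141 for S100A12. LYZ, at 50.8, 11.8 and 24.8, was called lower with seminal plasma (limma adjusted p 0.0382). CD14 was lower with TGFB3 and passed only without seminal plasma replicates 3 and 4 (0.327, then 0.00642). The prostate and seminal vesicle markers summed to 1413 to 2135 with seminal plasma, 1036 to 1413 in the controls and 962 to 1486 with TGFB3. None of these 8 was called between any 2 groups. The squamous epithelial markers also summed higher with seminal plasma, at 318780 to 526783 against 201724 to 300064 in the controls and 214347 to 304718 with TGFB3. The leukocyte markers did not, at 652 to 1201 against 900 to 1339 in the controls. Seminal plasma replicate 3 had the highest sum of both the prostate and seminal vesicle and the squamous markers. Whether the added seminal plasma carried in RNA was not tested. A signal is the deposited linear intensity, scaled so that arrays have nearly the same trimmed mean (493.3 to 498.4). Seminal plasma replicates 3 and 4 stood apart, with 8.01% and 12.8% of probe sets below a signal of 16 against 16.3% to 20.2% on the other 10 arrays, and with 18.41% and 15.36% of the total signal in their 100 brightest probe sets against 7.66% to 11.6%. Many called results, and several other named values, are given with and without them. Precision is limited by having 4 arrays in a group. In bulk RNA, fewer cells that express a gene and less RNA per cell cannot be told apart, and levels of different probe sets are not compared because their affinities differ.

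The promoters of the members are shown here because PMEPA1 and SMAD7 rose and because short SMAD elements are the DNA that SMAD complexes are known to contact. RefSeq (GRCh38.p14) windows of 250 bases before to 50 after a transcription start were matched for 9 of the 10 genes, all but SKI, with 19 starts in all. The 5-letter element CAGAC was found on either strand in 11 of the 19 windows, and it is in 45.3% of all 35116 windows. The palindrome GTCTAGAC, with which CAGAC does not overlap, was in 1 of 19 and in 0.202% of all windows. GGCGCC, a GC-rich element, was in 7 of 19 (19.2% of all), and the AP-1 site TGACTCA in 1 of 19 (4.95% of all). The stretches below run 5′ to 3′ on the gene's strand, are those of 4 members, lie before the start, and show CAGAC, its reverse complement or the palindrome in capitals. CAGAC also lies before a start of BAMBI and SMAD3, and in SMURF2 it begins 1 base before the start and runs past it. The brightest probe sets of these genes passed with neither treatment. A match is a run of letters and was not tested as a binding site.
PMEPA1, the second of 4 listed starts, chr20:57710668-57710712, minus strand: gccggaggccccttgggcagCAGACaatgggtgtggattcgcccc
PMEPA1, the fourth of 4 listed starts, chr20:57690733-57690777, minus strand: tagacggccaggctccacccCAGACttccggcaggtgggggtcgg
SMAD7, the first of 3 listed starts, chr18:48951069-48951202, minus strand: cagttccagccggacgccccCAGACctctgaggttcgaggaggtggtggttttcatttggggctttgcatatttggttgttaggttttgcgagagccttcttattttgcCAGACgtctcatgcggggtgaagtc
SMAD7, the second of 3 listed starts, chr18:48949502-48949546, minus strand: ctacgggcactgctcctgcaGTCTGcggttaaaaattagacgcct
SKIL, its only listed start, chr3:170357588-170357632, plus strand: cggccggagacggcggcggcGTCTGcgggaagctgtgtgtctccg
SMAD6, its only listed start, chr15:66702204-66702235, plus strand: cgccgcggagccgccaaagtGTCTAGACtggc
The palindrome lies 12 bases before the start of SMAD6, a member whose transcript was at or near the floor in these cells (below).

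With TGFB3, PMEPA1 and SMAD7 rose, and no member fell. Of 33 member probe sets, 4 passed and all 4 were higher (12.1%), where 0.19% of all 54613 probe sets passed in either direction and 0.168% were higher. Those 4 belong to 2 genes, since PMEPA1 has 3 probe sets, which share their RNA and are not independent. With seminal plasma, PMEPA1 and 1 of 3 probe sets of SKI rose and no member fell. Again 4 of 33 probe sets passed, all higher, where 2.94% of all probe sets passed and 1.74% were higher. By the brightest probe set of each gene, 2 of 10 genes rose with TGFB3 and 1 of 10 with seminal plasma. Of all 19682 genes, 0.254% and 1.87% were called higher, and 0.295% and 3.25% passed in either direction. Without seminal plasma replicates 3 and 4, 3 member probe sets passed with seminal plasma, those of PMEPA1, beside 0.987% of all probe sets, and 4 with TGFB3 beside 0.542%. The test is limma on log2 signals, with signals under 16 set to 16, all 12 arrays in the fit, Benjamini-Hochberg adjustment over all 54613 probe sets and a threshold of 0.05. The median log2 fold change of the 10 genes was 0.64 with TGFB3 and 0.51 with seminal plasma, beside -0.01 and 0.11 over all genes. Over all probe sets the median with seminal plasma was 0.2, moving to 0.01 with quantile normalization and -0.19 with median centring, so small changes with seminal plasma are to be read against that shift. Both treatments share the 4 control arrays, so their 2 results for a member are not independent.

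**Figure D1:**
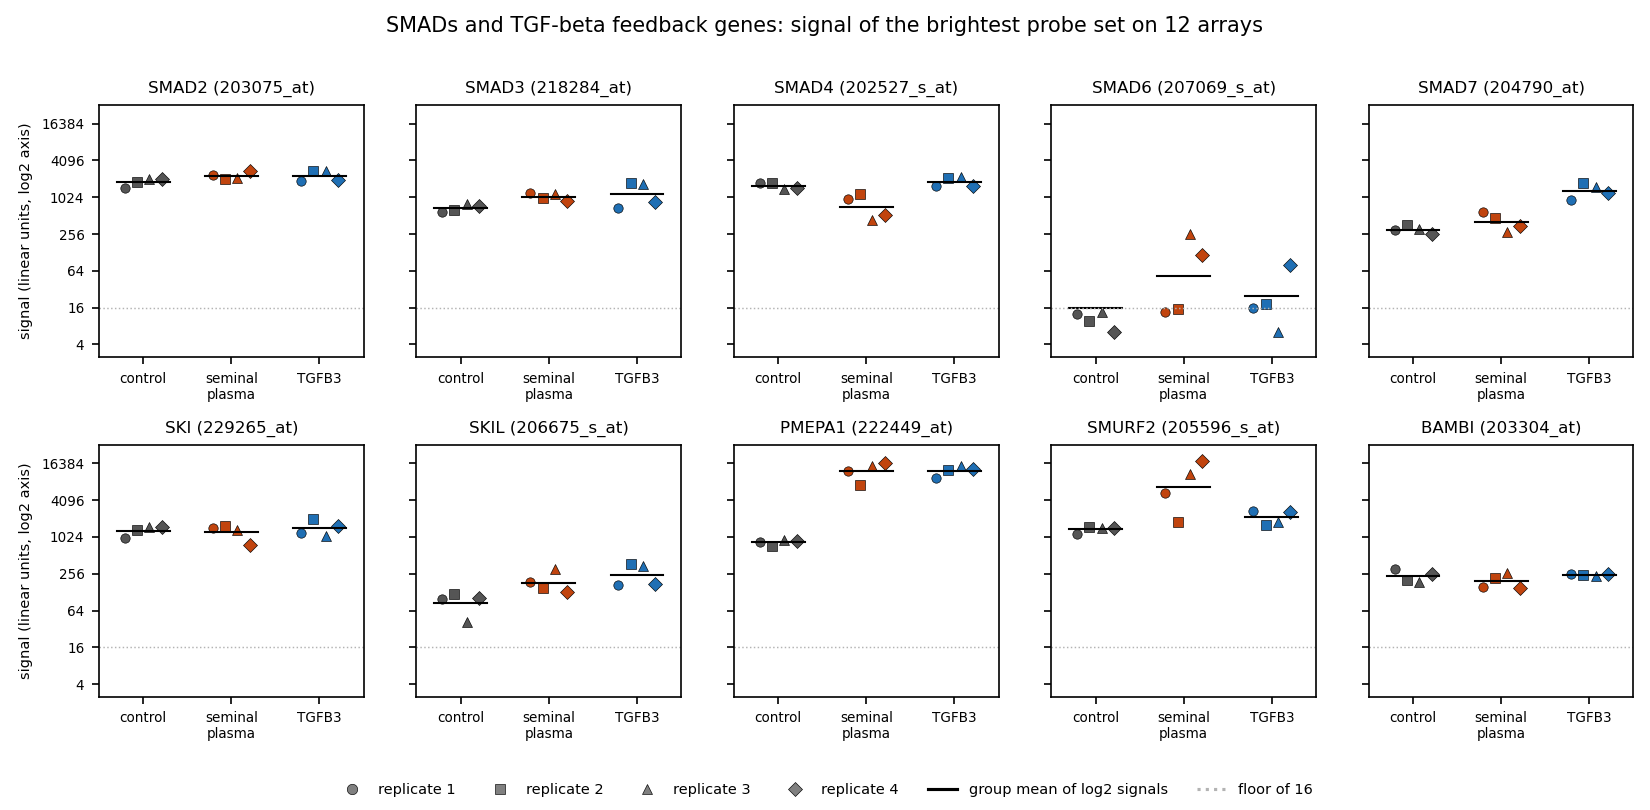
Signal of the brightest probe set of each of the 10 genes (linear units on a log2 axis) on the 12 arrays, by treatment; symbols mark the replicate, the bar is the mean of the log2 signals in a group and the dotted line is the floor of 16. PMEPA1 sits between 727 and 910 in the controls and between 7157 and 16405 with either treatment, while SMAD7 is above 900 on the 4 TGFB3 arrays alone.

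The receptor-activated SMADs come first. SMAD2, which TGF-beta receptors phosphorylate, read 1431, 1817, 2008 and 2060 in control replicates 1 to 4. The signals were 2333, 2006, 2106 and 2791 with seminal plasma and 1863, 2715, 2725 and 1964 with TGFB3. The groups overlapped, and the log2 fold change was 0.34 ± 0.2 (standard error from limma, whose spread is pooled over the 3 groups) with seminal plasma and 0.33 ± 0.2 with TGFB3, neither of which passed (limma adjusted p 0.309 and 0.816). The 95% interval for TGFB3, -0.1 to 0.77, still allows a rise of that size. Among the other 5 probe sets of SMAD2 the log2 fold change ran from -0.62 to 0.21 with seminal plasma and from -0.01 to 0.72 with TGFB3, and none passed.

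SMAD3, the DNA-binding partner of SMAD2 in the same step, read 580, 643, 808 and 738 in the controls. It was 1187, 996, 1150 and 900 with seminal plasma, so that the 4 arrays lay above all controls. With TGFB3 it was 686, 1776, 1670 and 849: replicates 2 and 3 were the highest of all 12 arrays, and replicate 1 lay inside the control range. The log2 fold change was 0.62 ± 0.3 with seminal plasma and 0.74 ± 0.3 with TGFB3, and neither passed (limma adjusted p 0.232 and 0.585). The other 3 probe sets of SMAD3 showed the same replicates of TGFB3 as the highest, at 1524 and 1502 (205398_s_at), 920 and 566 (205396_at) and 820 and 664 (205397_x_at) in replicates 2 and 3. In replicate 1 those probe sets read 435, 170 and 42.7, close to the lowest control arrays, which read 436, 187 and 43.5. The spread within the TGFB3 group was thus shared by all 4 probe sets. 205397_x_at, by the suffix of its name, may also read other transcripts.

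SMAD4, the common partner of the activated SMADs, differed between probe sets. The brightest, 202527_s_at, read 1742, 1749, 1394 and 1436 in the controls and 1583, 2115, 2179 and 1542 with TGFB3. With seminal plasma it read 969, 1164, 431 and 519, below every other array. Its log2 fold change with seminal plasma was -1.15 ± 0.31 against control and -1.37 ± 0.31 against TGFB3, and neither passed (limma adjusted p 0.0657 and 0.0531). Against control it was -0.57 when replicates 3 and 4 were left out (adjusted p 0.228). The SMAD4 value against control did pass in the fit without replicate 2 (-1.39; adjusted p 0.0128), among probe sets with a mean signal of at least 100 (0.0339) and with trend and robust moderation (0.0307). The value against TGFB3 passed under the same 3 settings (0.011, 0.0252 and 0.0199) and without replicate 1 (0.0451), and was -0.79 without replicates 3 and 4 (0.124). The next probe set, 235725_at, read 405 to 530 in the controls, 403 to 665 with seminal plasma and 420 to 525 with TGFB3, with a log2 fold change of 0.08 ± 0.19 with seminal plasma. The 3 dimmer probe sets of SMAD4 had log2 fold changes with seminal plasma of 0.66 ± 0.41 (202526_at), 0.02 ± 0.46 (1565703_at) and 1.3 ± 0.45 (1565702_at), and none passed (limma adjusted p 0.33, 0.992 and 0.113). At 1565702_at all 4 seminal plasma arrays, at 35.5 to 89.5, lay above the controls, at 3.02 to 31.3. The 5 probe sets of SMAD4 thus gave no single direction.

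A like split between arrays was seen in 1 probe set of SMAD2, 203076_s_at, which with seminal plasma read 1904, 1879, 793 and 1119. The controls there read 1911 to 2220. Its log2 fold change with seminal plasma was -0.62 ± 0.26, with limma adjusted p 0.177; leaving out replicates 3 and 4 gave -0.12 with adjusted p 0.682. The part of these 2 arrays' shifted signal distribution in the lower values of SMAD2 and SMAD4 was not tested.

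The inhibitory SMADs differed in level and in response. SMAD7, which blocks the receptor and is itself a SMAD target, read 299, 358, 305 and 260 in the controls. With TGFB3 it read 926, 1724, 1498 and 1212, and every TGFB3 array lay above every control and every seminal plasma array. With seminal plasma it read 586, 462, 272 and 348, where replicates 1 and 2 lay above the controls and replicates 3 and 4 within them. SMAD7 rose by 2.1 ± 0.27 on the log2 scale with TGFB3 (limma adjusted p 0.0127), a 4.3-fold change. With seminal plasma the log2 fold change was 0.4 ± 0.27 and did not pass (adjusted p 0.376), or 0.78 without replicates 3 and 4 (adjusted p 0.207).

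The direct contrast tests that difference between the treatments. SMAD7 was lower with seminal plasma than with TGFB3, by -1.71 ± 0.27 on the log2 scale (95% interval -2.3 to -1.11; limma adjusted p 0.0233). With the 2 seminal plasma arrays that stand apart left out, the value was -1.33, and the call was lost (adjusted p 0.0673), in a fit that also has fewer arrays. With 1 array left out, SMAD7 kept its call against control in 8 of 12 fits, with adjusted p from 0.0567 to 0.067 in the 4 others (without control replicates 3 or 4 or TGFB3 replicates 2 or 3). It kept the call against TGFB3 in 8 of 12 as well, with 0.0551 to 0.076 in the others (without seminal plasma replicate 4 or TGFB3 replicates 2, 3 or 4). Median centring ended the call of SMAD7 with TGFB3 against control (adjusted p 0.0955), and a fit of only the 2 groups compared ended that against TGFB3 (adjusted p 0.119). A fit with the replicate number as a block ended both calls (adjusted p 0.0813 against control and 0.0588 against TGFB3).

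SMAD6, the inhibitor known mainly from the BMP branch, was near the floor. Its brightest probe set, 207069_s_at, read 12.7, 9.67, 13.4 and 6.48 in the controls and 16, 18.2, 6.42 and 79.3 with TGFB3. With seminal plasma it read 13.4, 15, 254 and 118, so only the 2 arrays that stand apart lay clearly above the floor. The log2 fold change with seminal plasma was 1.72 ± 0.88 and did not pass (limma adjusted p 0.249), and without these arrays it was 0. The other 3 probe sets of SMAD6 read between 5 and 127 over all arrays, and none passed in any contrast.

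The nuclear co-repressors follow. SKIL, known as a TGF-beta-induced gene whose protein is degraded on signalling, read 97.9, 120, 42.1 and 103 in the controls. It was 185, 152, 303 and 131 with seminal plasma and 170, 367, 340 and 177 with TGFB3, and in both groups each array lay above all controls. Its log2 fold change was 1.55 ± 0.41 with TGFB3 and 1.11 ± 0.41 with seminal plasma, and neither passed (limma adjusted p 0.245 and 0.129). With array weights the value with TGFB3 was 1.8 and passed (adjusted p 0.0304). The signals are low, and the lowest control array, replicate 3, adds to the spread. A second probe set, 215889_at, read 83.7, 44.2, 346 and 337 with seminal plasma against 8.79 to 114 in the controls, again high in replicates 3 and 4 (1.92 ± 0.72; adjusted p 0.138, or 0.67 with adjusted p 0.702 on leaving them out). The third, 232379_at, was at most 85.5 on every array.

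SKI, the related co-repressor, gave unlike answers by probe set. The brightest, 229265_at, read 971, 1307, 1479 and 1468 in the controls, 1452, 1545, 1346 and 764 with seminal plasma and 1198, 2015, 1079 and 1576 with TGFB3, and the groups overlapped. Its log2 fold change was -0.06 ± 0.28 with seminal plasma and 0.14 ± 0.28 with TGFB3 (limma adjusted p 0.911 and 1). The dimmer 204270_at read 182, 163, 211 and 187 in the controls, 200, 180, 220 and 222 with TGFB3, and 450, 268, 617 and 510 with seminal plasma. On that probe set SKI rose by 1.26 ± 0.24 with seminal plasma (adjusted p 0.0271) and was higher than with TGFB3 by 1.11 ± 0.24 (adjusted p 0.047).

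Those 2 calls of SKI depended on the arrays. Without seminal plasma replicates 3 and 4 the log2 fold change was 0.91 against control and 0.76 against TGFB3, and neither passed, with limma adjusted p 0.0967 and 0.161. Of 12 fits with 1 array left out, 7 kept the call against control, which was lost without any 1 of the 4 control arrays or without seminal plasma replicate 4 (adjusted p 0.0675 to 0.0772), and 1 kept that against TGFB3, the fit without seminal plasma replicate 2 (adjusted p 0.00396). In the other 11 fits of the contrast with TGFB3 the adjusted p was 0.0596 to 0.126. Median centring (0.0805 and 0.126), a floor of 1 (0.0503 and 0.0875) and a fit of only the 2 groups compared (0.102 and 0.172) also ended both calls. Quantile normalization (0.0542) and a fit with the replicate number as a block (0.0625) ended the call against TGFB3. The third probe set of SKI, 213755_s_at, ranged from 12.7 to 220 and did not pass.

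**Figure D2:**
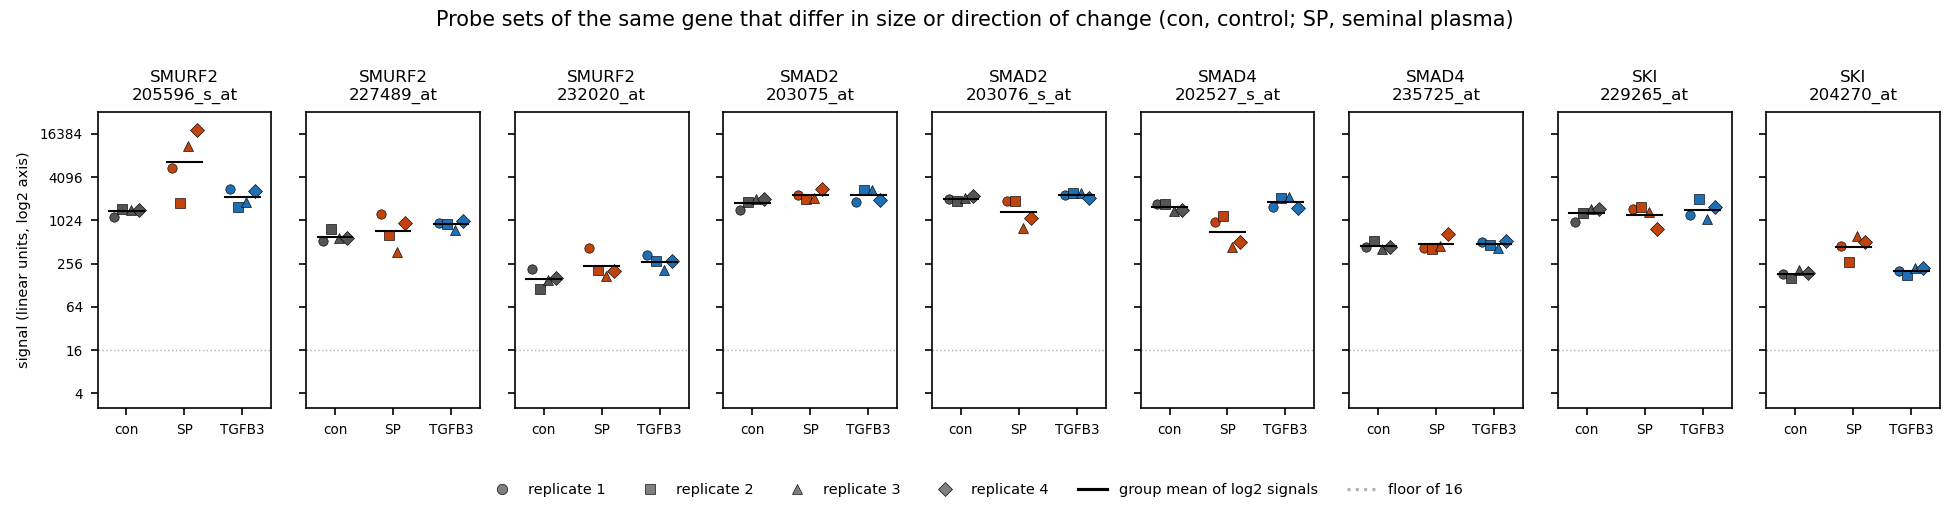
Signals (linear units on a log2 axis) of 9 probe sets of SMURF2, SMAD2, SMAD4 and SKI on the 12 arrays, with con for control and SP for seminal plasma; symbols mark the replicate and bars the mean of log2 signals. SMURF2 205596_s_at reaches 18234 in seminal plasma replicate 4, while 227489_at stays between 368 and 1236 in that group.

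The remaining inhibitors held the largest change. PMEPA1, the membrane inhibitor that binds SMAD2 and SMAD3, read 834, 727, 910 and 866 in the controls. With seminal plasma it read 12209, 7157, 14829 and 16405, and with TGFB3 9295, 12858, 15029 and 13035. The treated groups overlapped each other and lay far above the controls. PMEPA1 rose by 3.89 ± 0.26 on the log2 scale with TGFB3 (limma adjusted p 0.000425) and by 3.86 ± 0.26 with seminal plasma (adjusted p 0.000149), which are 14.9-fold and 14.5-fold changes.

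The other 2 probe sets of PMEPA1 gave the same direction. For 222450_at the log2 fold change was 4.37 ± 0.29 with TGFB3 and 4 ± 0.29 with seminal plasma, from a control mean signal of 340 ± 108 (SD, n = 4). For 217875_s_at it was 3.71 ± 0.39 and 2.77 ± 0.39, from 226 ± 58.1. All 3 probe sets passed in both treatments, kept the call whichever of the 12 arrays was left out, and passed without seminal plasma replicates 3 and 4, where the highest adjusted p was 0.0497 (217875_s_at with seminal plasma).

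Between the treatments PMEPA1 differed by -0.03 ± 0.26 on the log2 scale at its brightest probe set, with a 95% interval of -0.61 to 0.54 (limma adjusted p 0.957). The interval at 222450_at was -1 to 0.27, and at 217875_s_at it was -1.81 to -0.08, with adjusted p 0.472 and 0.189. None passed, and the last interval leaves room for a lower level with seminal plasma. Without seminal plasma replicates 3 and 4 the differences of PMEPA1 were -0.4 at the brightest probe set, -0.08 at 222450_at and -1.53 at 217875_s_at (adjusted p 0.534, 0.968 and 0.137), so the small difference at the brightest probe set depended on these arrays. Beside it stands the interval for SMAD7 above, -2.3 to -1.11. Whether the 2 genes differ from each other in this contrast was not tested.

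SMURF2, a ubiquitin ligase that SMAD7 brings to the receptor, differed by probe set and by array. At 205596_s_at the controls read 1149, 1476, 1417 and 1447, and TGFB3 gave 2761, 1589, 1825 and 2647, each above all controls. With seminal plasma the signals were 5446, 1795, 11176 and 18234, also each above all controls but spread over a wide range. The log2 fold change with seminal plasma was 2.29 ± 0.58 and did not pass (limma adjusted p 0.0581), and it was 1.19 without replicates 3 and 4 (adjusted p 0.239). Leaving out replicate 2 instead gave 2.92, which passed (adjusted p 0.00306), and the value also passed with array weights (1.86; 0.0479), the filter on mean signal (0.0262) and trend and robust moderation (0.019). With TGFB3 it was 0.65 ± 0.58 (adjusted p 0.947).

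At 227489_at SMURF2 read 1236, 637, 368 and 940 with seminal plasma against 520 to 781 in the controls, and at 232020_at 423, 210, 174 and 204 against 115 to 214. Replicates 3 and 4, the highest at 205596_s_at, lay within the control range at 232020_at. At 227489_at replicate 4 was above the controls and replicate 3 was the lowest of all 12 arrays. The log2 fold changes were 0.25 ± 0.33 and 0.6 ± 0.3 with seminal plasma and 0.56 ± 0.33 and 0.81 ± 0.3 with TGFB3, and none passed (limma adjusted p from 0.242 to 0.807). With seminal plasma they were 0.54 and 0.93 when replicates 3 and 4 were left out.

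BAMBI, the receptor-like inhibitor, read 310, 200, 190 and 250 in the controls, 158, 215, 268 and 148 with seminal plasma and 257, 242, 234 and 249 with TGFB3. The groups overlapped. The log2 fold change was -0.28 ± 0.22 with seminal plasma and 0.08 ± 0.22 with TGFB3 (limma adjusted p 0.452 and 1), and the 95% interval with TGFB3 was -0.42 to 0.57.

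**Figure D3:**
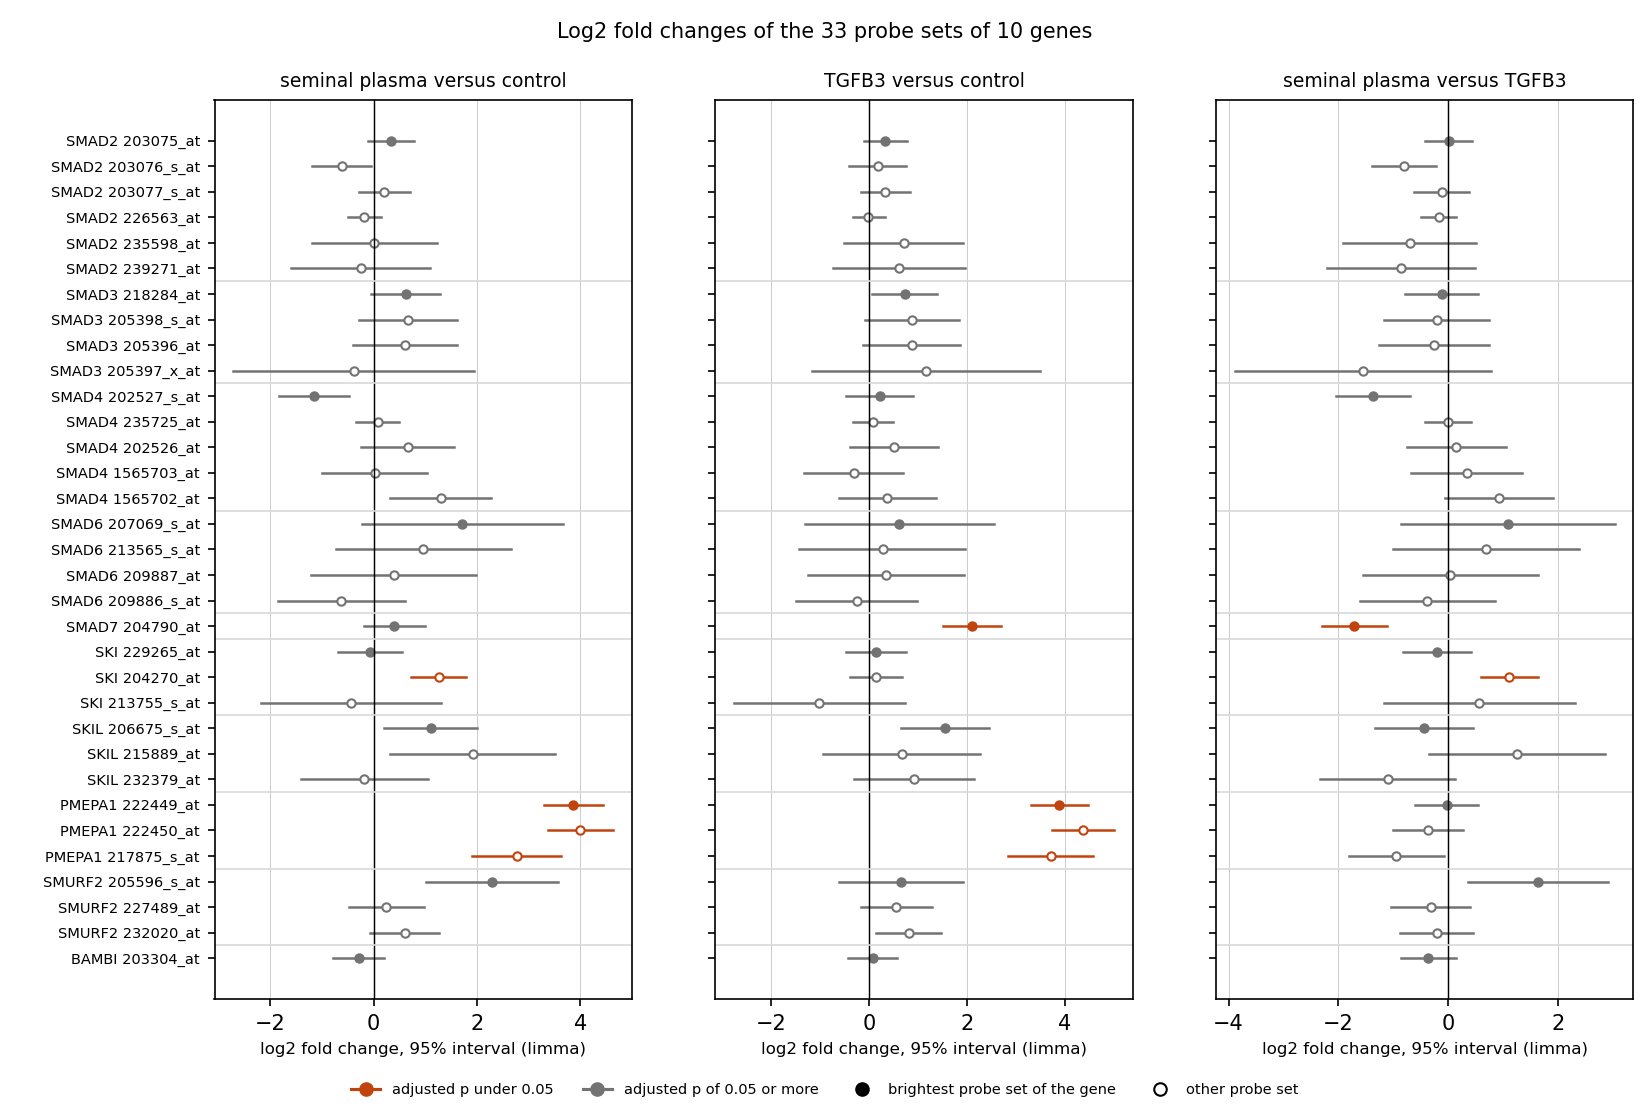
Log2 fold change with its 95% interval from limma for each of the 33 probe sets, in 3 contrasts; filled points are the brightest probe set of a gene, and orange marks an adjusted p under 0.05. The 3 probe sets of PMEPA1 lie between 2.77 and 4.37 in both contrasts with control and near or below 0 between the treatments, and SMAD7 passes at 2.1 with TGFB3 and at -1.71 between the treatments.

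In the direct contrast of seminal plasma with TGFB3, 2 of 33 member probe sets passed, SKI 204270_at higher and SMAD7 lower, where 1.73% of all probe sets passed, 0.95% higher and 0.78% lower. By the brightest probe set 1 of 10 genes passed, SMAD7, beside 1.96% of all genes. Without seminal plasma replicates 3 and 4 limma called 0 member probe sets and 0.721% of all probe sets at the adjusted threshold. At an unadjusted p under 0.05 it gave 5 of 33 members and 13.3% of all probe sets. By groups that did not overlap, 8 member probe sets had all 4 seminal plasma arrays above the controls (7.11% of all probe sets did) and 6 had all 4 TGFB3 arrays above them (3.87% of all). Toward lower values, 2 member probe sets separated with seminal plasma (6.14% of all) and 0 with TGFB3 (4.12% of all); toward lower values with TGFB3, limma also called 0 member probe sets, and 0 at an unadjusted p under 0.05, where 3.48% of all probe sets were lower. Between the treatments 1 member probe set was higher on all 4 seminal plasma arrays (5.36% of all) and 3 were lower (4.61% of all).

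The authors' deposited table makes more calls, by a test not given in the sources used here. In the authors' deposited table, 7.24% of all probe sets were called with seminal plasma and 7 of 33 members, and 1.62% were called with TGFB3 and 6 of 33 members. Beyond the calls above, the authors' deposited table called SMAD4 202527_s_at (fold -2.05), SMURF2 205596_s_at (6.68) and SKIL 206675_s_at (2.13) with seminal plasma. It also called SKIL 206675_s_at (2.91) and SMAD3 205398_s_at (2.05) with TGFB3 in the authors' deposited table. There a fold is the ratio of mean linear signals, so 1 bright array weighs more than on the log2 scale. Every called member there had a fold of 2.05 or more in size and a deposited p of 0.0434 or less. With seminal plasma SMAD3 218284_at (1.53) and SMAD4 1565702_at (3.29) were not called. The rule behind the call is not stated, nor whether those p-values are adjusted. The calls here use an adjusted p without a fold cutoff, so the 2 numbers of calls are not on a like threshold.

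Around the members, some induced targets of the pathway rose. Of 25 measured TGF-beta target genes, 5 rose with TGFB3 and the other 20 did not pass, with a median log2 fold change of 1.32 beside -0.01 over all genes and 0.254% of all genes called higher. NEDD9, a scaffold of focal adhesions, rose by 3.42 ± 0.35, ITGB6, an integrin chain that activates latent TGF-beta, by 2.54 ± 0.27, and COL4A1, a basement membrane collagen, by 1.64 ± 0.21 (limma adjusted p 0.00443, 0.00493 and 0.014).

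With seminal plasma 5 of these 25 targets rose and the other 20 did not pass. The median log2 fold change was 0.54 beside 0.11 over all genes, with 1.87% of all genes called higher. TAGLN, an actin-binding protein, rose by 2.79 ± 0.33, the cytokine IL11 by 2.7 ± 0.63, ITGB6 by 1.39 ± 0.27 and SNAI2, a transcription factor, by 0.98 ± 0.23 (limma adjusted p 0.00413, 0.0486, 0.0285 and 0.0494). Of the 25, 2 passed without seminal plasma replicates 3 and 4, TAGLN and ITGB6 (adjusted p 0.0388 and 0.00438), beside 0.987% of all probe sets. Their log2 fold changes were then 2.49 and 1.86. Those of IL11 and SNAI2 were 1.94 and 0.57 (adjusted p 0.274 and 0.127). In the direct contrast 5 targets were lower with seminal plasma and 1 was higher, where 1.96% of all genes passed in either direction. LOX, a collagen crosslinking enzyme, was lower by -4.4 ± 0.76, ID3 by -3.34 ± 0.65 and CDKN2B, a cell cycle inhibitor, by -2.45 ± 0.4, while TAGLN was higher by 2.06 ± 0.33 (limma adjusted p 0.0287, 0.0369, 0.0243 and 0.0233). In that contrast 0 of the 25 passed once replicates 3 and 4 were left out, where 0.721% of all probe sets passed. The log2 differences were then -3.71 for LOX, -2.04 for ID3, -2.02 for CDKN2B and 1.75 for TAGLN (adjusted p 0.143, 0.0862, 0.102 and 0.105). That fit has fewer arrays. On all arrays, seminal plasma against control gave -1.73 for LOX, -2.09 for ID3 and -0.62 for CDKN2B, and none passed (adjusted p 0.189, 0.09 and 0.35). TGFB3 against control gave 2.67 for LOX, 1.25 for ID3 and 1.83 for CDKN2B, and none passed there either (limma adjusted p 0.307, 0.748 and 0.149). ID1, ID2 and ID3 are in the list of induced targets but may fall after TGF-beta in epithelial cells. Here, with TGFB3 against control, ID1 had a log2 fold change of 2.11 ± 0.57 and ID3 1.25 ± 0.65. ID2, at mean signals of 19.6 in the controls and 7.39 with TGFB3, had -0.4 ± 0.46. None of these passed (limma adjusted p 0.259, 0.748 and 0.976).

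The rest of the pathway gave few calls. Of 16 ligands and receptors 0 passed with either treatment against control, and the median log2 fold change was 0.34 with TGFB3 and -0.11 with seminal plasma. Of all genes, 0.295% passed with TGFB3 and 3.25% with seminal plasma, so 0 of 16 lies near the share of all genes. TGFBR1, the receptor kinase that phosphorylates SMAD2 and SMAD3, had a log2 fold change of 0.86 ± 0.2 with TGFB3 (limma adjusted p 0.175), and was lower with seminal plasma than with TGFB3 by -1.19 ± 0.2 (adjusted p 0.0254, or 0.0586 on leaving out the 2 arrays that stand apart). With those 2 arrays left out, TGFBR1 and the BMP receptor BMPR2 passed with TGFB3 against control (adjusted p 0.0437 and 0.0206). TGFBR3, a co-receptor, had -1.88 ± 0.59 with TGFB3 (adjusted p 0.385). With seminal plasma the smallest p values were those of the BMP receptor BMPR1B (1.28 ± 0.35) and the activin receptor ACVR2B (1.04 ± 0.37; adjusted p 0.0699 and 0.12). Leaving out replicates 3 and 4 gave 0.7 for BMPR1B and 0.55 for ACVR2B (adjusted p 0.35 and 0.56), and turned the median of the 16 genes with seminal plasma from -0.11 to 0.15.

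Of 22 other SMADs and cofactors and of 23 measured genes in a list of other regulators, none passed in any of the 3 contrasts. Of all genes, 0.295% passed with TGFB3, 3.25% with seminal plasma and 1.96% between the treatments. At such shares few calls would fall in lists of this size, so the absence of calls says little about these lists. Among the cofactors RUNX1, a transcription factor, had the smallest p with both treatments (0.91 ± 0.17 with TGFB3 and 0.71 ± 0.17 with seminal plasma; limma adjusted p 0.0846 and 0.0528). With seminal plasma replicates 3 and 4 left out RUNX1 passed with TGFB3 (adjusted p 0.0295). In the same fit its log2 fold change with seminal plasma was 0.51 (adjusted p 0.182). FOXO1 followed with TGFB3 (0.82 ± 0.28; 0.448). That second list mixes negative regulators with genes known to promote the signal, among them USP4, USP15, UCHL5 and RNF111. In it the smallest p values were those of the phosphatase gene CTDSPL (-0.79 ± 0.24; 0.353) and the ligase STUB1 (-0.31 ± 0.16; 0.742) with TGFB3, and of the ubiquitin ligase ITCH (1.66 ± 0.4; 0.0535) and the deubiquitinase USP4 (1.21 ± 0.33; 0.0704) with seminal plasma. Without seminal plasma replicates 3 and 4, ITCH and USP4 had a log2 fold change of 1.02 and 0.55.

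The profiles most like those of the members are given as a description, by Pearson's r of log2 signals over the 12 arrays among 13114 genes with a mean signal of at least 100. The points share the 3 treatment groups and the 2 arrays that stand apart. For PMEPA1 they were ZBED2 (0.962), MICAL2 (0.958) and FOXL1 (0.957), and for SMAD7 AFAP1L2 (0.983), CORO6 (0.96) and TNFAIP8 (0.96). For SKIL they were LAYN (0.948), CCDC68 (0.916) and NLRP1 (0.91), and for BAMBI, whose signals varied little between groups, they included MYOT (0.869) and LTB (0.842). No gene was among the 3 nearest of more than 1 of these members.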

How the data were processed

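RNA of 12 cultures was read on 12 arrays, 1 for each of 4 replicates of 3 treatments, and groups and replicate numbers come from the sample titles. The authors deposited 1 linear intensity per probe set and array. The submitters' processing notes name GCOS 1.4, MAS5, R 2.6.1, Partek and RMA, without role or order, so the scaling was read from the values. The authors' deposited table repeats these values (largest difference 0) and adds, per the file headers, group mean intensities, a fold, a p-value by a test that no source states, and a call.

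A floor of 16 was set on the intensities before the log2 transform. No probe set was filtered out. limma 3.58.1 in R 4.3.3 (lmFit, eBayes) fitted 3 group means on all 12 arrays, with Benjamini-Hochberg adjustment over 54613 probe sets, and was tested on simulated data. A gene is represented by its probe set with the highest mean signal, after updating symbols through RefSeq. Groups are said not to overlap on signals with the same floor. Python 3.11.15, numpy 2.4.6, pandas 2.3.3 and matplotlib 3.10.9 made tables and figures.

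The members and lists were chosen with earlier results of these data known. Every member is named. From each pathway list up to 4 changed genes with the largest change, or the 2 with the smallest p, are named per treatment, and for 4 members the 3 nearest profiles. Genes named in the direct contrast (TGFBR1, LOX, ID3, CDKN2B) were chosen after their values were seen. Alternatives changed normalization, floor, filter, arrays, weights, moderation and replicate block. BMPR2 was likewise named after its values were seen. Protein sequences were not used here. Some genes that these rules would name are not reported here.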

Additional observations from a re-analysis of the deposited data

Results flagged for a closer look

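In 5 of 99 groups of 4 arrays (33 probe sets in 3 groups), the highest or lowest array lay so far from the rest that the gap to its nearest neighbour passed Dixon's 95% critical value for its share of the group's range on the log2 scale. Chance alone flags about 1 group in 20, so 5 of 99 is close to what chance gives. PMEPA1 222450_at read 10070 in TGFB3 replicate 4, where the other 3 arrays read 5816 to 5990. SKIL 232379_at read 23.1 in TGFB3 replicate 1 against 74.6 to 85.5. SMAD3 205396_at read 487 in seminal plasma replicate 3 against 280 to 300 in the others. SMAD6 207069_s_at read 79.3 in TGFB3 replicate 4, where the others lay between the floor of 16 and 18.2. SMURF2 205596_s_at read 1149 in control replicate 1 against 1417 to 1476. The calls of PMEPA1 222450_at held in the fit without that array.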

How the results depend on the processing

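Of 33 member probe sets, 4 were called with seminal plasma against control; the count was 3 to 6 under the other settings and 3 to 7 with 1 array left out (7 without seminal plasma replicate 2), and the higher counts include SMAD4, SMURF2 or SKIL 215889_at. With TGFB3 against control the count of 4 ran from 3 to 5, and from 3 to 4 with 1 array left out. Between the treatments the count of 2 rose to 3 with a mean signal of at least 100 and with trend and robust moderation, fell to 1 with quantile normalization, median centring or a floor of 1, and to 0 with only the 2 groups compared, with the replicate block and without seminal plasma replicates 3 and 4, and ran from 0 to 5 with 1 array left out (5 without seminal plasma replicate 2).

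Counts over all probe sets moved more, from 1608, 104 and 945 (seminal plasma and TGFB3 against control, and between treatments). Median centring gave 787, 61 and 369, a floor of 1 gave 733, 59 and 221, a mean signal of at least 100 gave 3898, 189 and 2534, the 2 groups alone gave 197, 300 and 12, trend and robust moderation gave 3666, 228 and 2352, and leaving out seminal plasma replicates 3 and 4 gave 539, 296 and 394. Array weights gave 1771 and a floor of 64 gave 164 with TGFB3. With 1 array left out the ranges were 270 to 8900, 35 to 142 and 91 to 7055.

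Same-numbered arrays of different groups had residual correlations of -0.09 to 0.15, over 0.1 in 2 of 12 pairs. Differently numbered arrays had -0.13 to 0.1, over 0.1 in 0 of 36 pairs. These weak correlations do not settle whether replicate numbers pair the samples. With the replicate block SMAD7 lost its calls (adjusted p 0.0813 with TGFB3 against control and 0.0588 between the treatments), as did SKI 204270_at against TGFB3 (0.0625). The member counts were 4, 3 and 0 and the counts over all probe sets 307, 21 and 47.

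Directions that turned belong to values that did not pass. SKI 229265_at with seminal plasma against control was 0.06 with quantile normalization, 0.22 without seminal plasma replicates 3 and 4 and -0.2 to 0.17 with 1 array left out; against TGFB3 it was 0.07 without these arrays and -0.34 to 0.02. With TGFB3 against control, leaving out 1 array gave -0.02 to 0.28 for SKI and -0.02 to 0.21 for BAMBI. SMAD2 203075_at was -0.05 against control with median centring. Against TGFB3 it was -0.32 with median centring, -0.07 with array weights, -0.08 without seminal plasma replicates 3 and 4 and -0.09 to 0.09 with 1 array left out. Against TGFB3 with 1 array left out PMEPA1 222449_at was -0.18 to 0.22 and SMAD3 218284_at -0.37 to 0.09, and SMAD6 was -0.62 without seminal plasma replicates 3 and 4. The cause was not tested. Signals near the floor limit SMAD6.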
